A study of Homo sapiens with 8 samples.

Results

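RNA polymerase II is the enzyme that transcribes protein-coding genes. It is built from a set of core subunits, and the genes of 10 of them, POLR2A, POLR2B, POLR2C, POLR2D, POLR2E, POLR2F, POLR2G, POLR2H, POLR2I and POLR2L, were followed here out of 63677 genes counted. They were chosen by symbol. The rule let the summed count decide where a symbol had several Ensembl identifiers, but each of the 10 had a single one, so no measured value chose an identifier. The group itself was picked with earlier results of the same THZ1 comparisons known, and the calls below are therefore given as a description of these genes. Human multiple myeloma cell lines, named JJN3 and H929 in the labels, had been exposed for 24 h to 50 nM THZ1 or to the vehicle DMSO before RNA was sequenced as single-end 50-base reads. THZ1 is a covalent inhibitor of CDK7, the kinase of the general transcription factor TFIIH. The 4 groups, JJN3 with DMSO, JJN3 with THZ1, libraries labelled H929 DMSO and libraries labelled H929 THZ1, held 2 libraries each. All cells grew in the same serum-supplemented RPMI-1640 medium, and the labels do not say whether the 2 libraries of a group came from separate cultures, so p-values measure the spread between these libraries, which may be technical.

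The largest subunit, RPB1, is encoded by POLR2A. It carries the C-terminal domain (CTD), a tail of heptad repeats that CDK7 phosphorylates as the polymerase leaves the promoter and that other kinases phosphorylate as it elongates. RPB1 and the second largest subunit, RPB2 (POLR2B), form the catalytic cleft. RPB3 (POLR2C) and RPB10 (POLR2L) belong to the assembly platform, RPB4 (POLR2D) and RPB7 (POLR2G) form a stalk that contacts the emerging RNA, and RPB9 (POLR2I) lies at the jaw. RPB5 (POLR2E), RPB6 (POLR2F), RPB8 (POLR2H) and RPB10 are also subunits of RNA polymerases I and III. Malignant plasma cells produce large amounts of immunoglobulin transcripts and are studied for their dependence on polymerase II transcription.

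The libraries held 17476443 to 19194371 counts on genes, and a floor of 3 counts lay at 0.156 to 0.172 CPM (counts scaled to the same library total in each library), which covers counting error only. All 8 plasma cell markers examined were detected in every library, while MS4A1 and PAX5, expressed by B cells, had at most 72 counts. Among markers of other cell types, CD3E of T cells had 15 and 26 counts under the label H929 DMSO and 640 and 650 under H929 THZ1, and the myeloid marker ITGAM had 607 and 463 counts and 0 in both. SDC1, a plasma cell marker, had 4536 and 5049 counts against 31513 and 29449. TNFRSF17, IRF4, PRDM1, XBP1 and IGJ also had more counts under H929 THZ1. MZB1 (6566 and 6892 counts against 3422 and 3216) and CD38 (1811 and 1654 against 1214 and 1171) had fewer. CD3D, the other T cell marker, had at most 4 counts in any library, and LYZ and CD14, the other myeloid markers, at most 6. In JJN3, CD3E had 32 to 75 counts and ITGAM at most 2. The libraries labelled H929 stood apart by more than treatment. Lambda genes took 98.0% or more of the light chain V gene counts under the label H929 DMSO, and 0.203% or less under the label H929 THZ1. FGFR3, a target of the t(4;14) translocation, had 45 and 285 counts in the former and 14117 and 13411 in the latter. MAF had 18006 and 16310 counts against 2729 and 2942. In JJN3, MAF was also lower with THZ1, at 8873 and 10362 counts against 16305 and 16840 with DMSO. On the log2 CPM scale, across genes that are not independent replicates, DMSO and THZ1 libraries correlated at 0.966 to 0.972 in JJN3 and at 0.777 to 0.812 between the H929 labels, against 0.795 to 0.810 between JJN3 DMSO and the libraries labelled H929 DMSO. Treatment and the identity of the cells cannot be told apart in any comparison between the H929 labels. Values for JJN3 are given first. The fold changes within JJN3 rest on none of these libraries, while CPM of the single genes were scaled over all 8 libraries together. Counts on mitochondrial genes took 1.65% to 3.36% of the total in JJN3 with DMSO and 5.34% to 6.63% with THZ1, 2.63% to 2.80% in the libraries labelled H929 DMSO and 2.94% to 4.02% in those labelled H929 THZ1, and their part in the results below was not tested.

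The 10 genes were all well expressed. Together they took 0.105% to 0.110% of the counts in JJN3 with DMSO and 0.121% to 0.122% with THZ1, and 0.164% to 0.169% in the libraries labelled H929. All 10 passed edgeR's filter on low counts in every comparison, and none passed it only through the group where it was high. The lowest count of any of them in any library was 483, for POLR2I. Reads of 7 of the genes can overlap another annotated gene, and whether the counting used strand is not given in the sources used here, so counts of these 7 may hold reads of a neighbour. POLR2A, POLR2G and POLR2H overlap no other annotated gene.

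**Figure D1:**
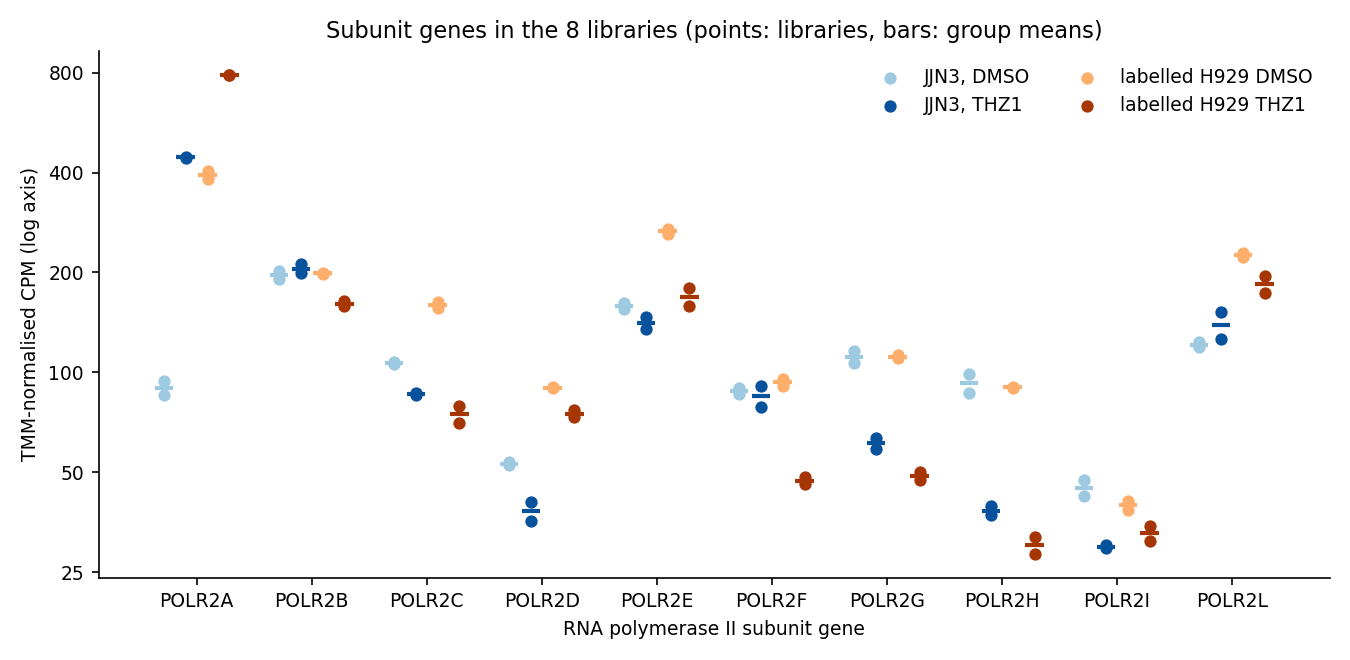
TMM-normalised CPM (vertical, log axis) of the 10 subunit genes in the 8 libraries, with points for libraries and bars for group means. POLR2A rises from 85.8 and 94.1 in JJN3 with DMSO to 442.5 and 446.2 with THZ1. POLR2C, POLR2D, POLR2E, POLR2G, POLR2H and POLR2I lie lower with THZ1 under both line labels, without overlap of libraries.

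POLR2A was the only one of the 10 to be called higher with THZ1 in JJN3, and POLR2G, POLR2H and POLR2I were called lower. A gene was called when its adjusted p-value was under 0.05 (edgeR's quasi-likelihood test, Benjamini-Hochberg adjustment over all genes tested) and its log2 fold change lay beyond 0.5, the thresholds the study used. Of the 13984 genes tested in JJN3, 20.6% were called higher and 21.3% lower, so 1 and 3 of 10 are read against these shares. The median log2 fold change was -0.22 over the 10 genes and -0.00036 over all genes tested. Under the H929 label, where 33.1% of 14863 genes were called higher and 32.6% lower, POLR2A was again the only subunit gene called higher, and POLR2C, POLR2E, POLR2F, POLR2G and POLR2H were called lower. The median log2 fold change there was -0.47 over the 10 and 0.014 over all genes. POLR2G and POLR2H were thus called lower under both line labels and POLR2A higher under both. The share of all genes called in the same direction under both labels was not computed, here or for the lists below. Such overlaps are therefore given without a background and are not read as agreement between the lines. All levels are relative to the other genes of a library, and in bulk RNA fewer cells with a transcript and less of it per cell cannot be told apart.

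**Figure D2:**
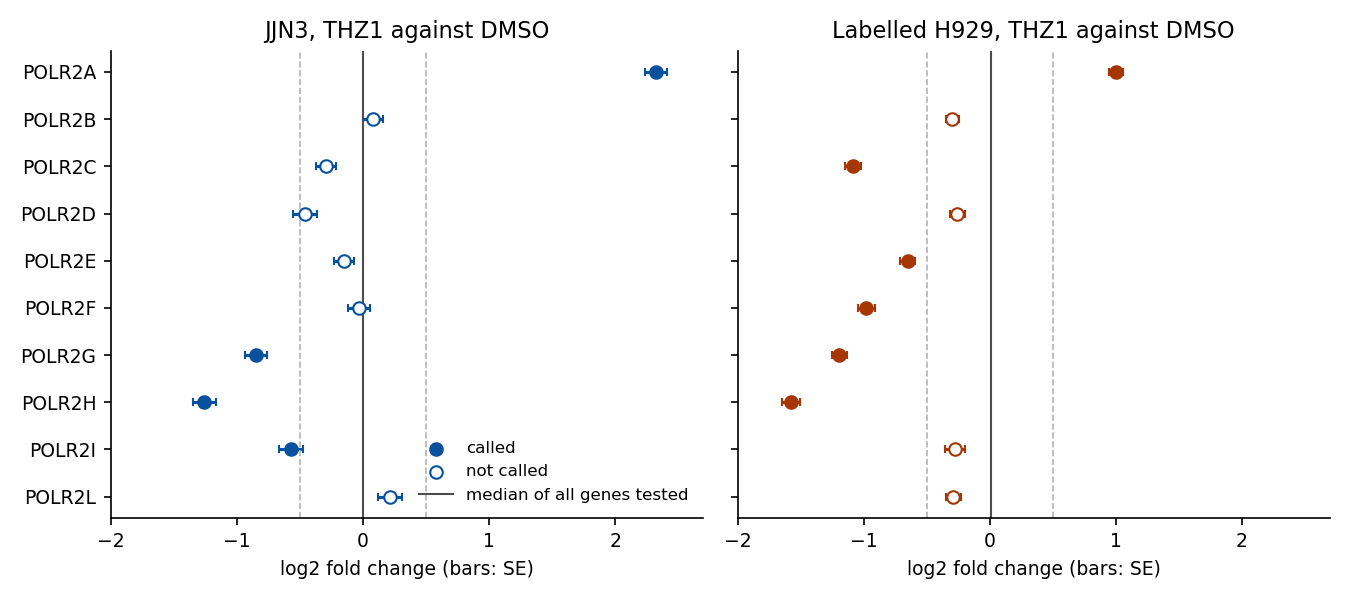
Log2 fold change of THZ1 against DMSO (horizontal, bars: SE) for each subunit gene in JJN3 (left) and between the libraries labelled H929 (right). Filled points were called, open points were not, dashed lines mark 0.5 in either direction and the solid line is the median of all genes tested. POLR2A is the only point to the right of the dashed line at 0.5, at 2.32 in JJN3 and 1.00 between the H929 labels.

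POLR2A lies on the plus strand of chromosome 17 (chr17:7387685-7417933, GRCh37), and its canonical mRNA has 30 exons and 6304 bases. It had 1819 and 1675 counts in JJN3 with DMSO and 7305 and 7966 with THZ1. Scaled by TMM, edgeR's normalization for library size and composition, these were 94.1 and 85.8 CPM against 446.2 and 442.5 CPM. Both THZ1 libraries thus lay far above both DMSO libraries, with no overlap. With 2 libraries against 2, a lack of overlap alone says little, and its share over all genes was not computed. The level rose from 89.9 ± 5.88 to 444.4 ± 2.63 CPM (SD, n = 2 libraries each), a log2 fold change of 2.32 (SE 0.088, 5.0-fold, adjusted p = 9.9e-08 from edgeR). By log2 fold change it ranked 306 from the top of 13984 genes. The libraries labelled H929 DMSO had 7536 and 6916 counts (405.2 and 382.9 CPM) and those labelled H929 THZ1 had 14952 and 14941 (785.1 and 788.4 CPM). The groups again did not overlap, and the log2 fold change was 1.00 (SE 0.055, 2.00-fold, adjusted p = 8.8e-11 from edgeR). Already with DMSO, POLR2A was 4.38-fold higher in the libraries labelled H929 than in JJN3, which put it near the level JJN3 had with THZ1.

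The promoter sequences of POLR2A and of POLR2H, the subunit genes with the largest rise and the largest fall in JJN3, are shown because these genes moved in opposite directions. They are the 250 bases before the annotated start in RefSeq on GRCh38.p14, 5′ to 3′ on the gene's strand, and POLR2H has 2 starts in that table. Capitals mark every match to the motifs searched on both strands: the TATA box TATAAA, the CCAAT box CCAAT, the GC box GGGCGG (bound by SP1-family factors), the ETS core CCGGAAG, the NRF1 core GCATGCGC, the YY1 core AAGATGGC, the CRE core TGACG and the E box CACGTG. Overlapping matches were both counted, and they occur only for the NRF1 core, whose matches on opposite strands share bases.
POLR2A, chr17:7484116-7484365, plus strand: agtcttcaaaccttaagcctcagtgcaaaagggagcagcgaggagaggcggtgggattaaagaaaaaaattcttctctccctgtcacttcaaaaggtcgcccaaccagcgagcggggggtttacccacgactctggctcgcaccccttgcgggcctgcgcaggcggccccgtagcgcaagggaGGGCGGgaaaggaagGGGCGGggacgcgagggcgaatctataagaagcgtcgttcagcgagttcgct
POLR2H, first start, chr3:184361460-184361709, plus strand: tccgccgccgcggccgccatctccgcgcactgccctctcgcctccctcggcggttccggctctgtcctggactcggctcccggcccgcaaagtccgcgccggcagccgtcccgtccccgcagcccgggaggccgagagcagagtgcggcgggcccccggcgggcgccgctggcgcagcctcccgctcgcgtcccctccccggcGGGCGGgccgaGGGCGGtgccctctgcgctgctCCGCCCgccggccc
POLR2H, second start, chr3:184363111-184363360, plus strand: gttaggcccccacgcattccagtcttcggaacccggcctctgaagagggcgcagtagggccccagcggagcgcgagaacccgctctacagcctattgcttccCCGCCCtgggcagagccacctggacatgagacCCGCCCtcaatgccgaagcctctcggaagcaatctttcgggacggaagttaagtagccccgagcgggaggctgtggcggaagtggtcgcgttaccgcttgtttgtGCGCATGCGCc

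POLR2A held 2 GC boxes, at 67 and 52 bases before its start. POLR2H held 3 GC boxes before its first start, and 2 GC boxes with an overlapping pair of NRF1 cores before its second. Of the 10 genes, 8 had a promoter in the table, POLR2G and POLR2I being without one. A gene was taken to hold a motif if any of its starts did, and POLR2F and POLR2H have 2 starts each. The shares of all promoters are per start, so the 2 are not in the same unit. The GC box was found in 6 of these 8 genes, against 42.6% of 35116 promoters of the same length. The ETS core was found in POLR2C and POLR2F (8.52% of all promoters), the NRF1 core in POLR2F and POLR2H (2.63%), and the CRE core in POLR2B alone among them (21.2%). None of the 8 held the TATA box (10.7% of all promoters), the CCAAT box (32.0%), the E box (6.34%) or the YY1 core (1.36%) in these letters. The promoters that hold a GC box are those of POLR2A, POLR2B, POLR2D, POLR2E, POLR2H and POLR2L. Any part of these motifs in the changes with THZ1 was not tested.

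POLR2B (chr4:57843888-57897324, GRCh37), the catalytic partner of POLR2A, did not move with it in JJN3. Its levels were 191.7 and 202.1 CPM with DMSO and 198.7 and 212.3 CPM with THZ1, so the groups overlapped. The log2 fold change was 0.08 (SE 0.082, adjusted p = 0.439 from edgeR). Under the H929 label POLR2B had 198.3 and 198.8 CPM with DMSO and 163.8 and 158.3 CPM with THZ1, a log2 fold change of -0.30 (SE 0.051) that passed the adjusted p-value (6e-05, edgeR) but not the limit on size. The 2 catalytic subunit genes thus shifted against each other. POLR2A had 0.491 and 0.424 counts for each POLR2B count in JJN3 with DMSO and 2.25 and 2.08 with THZ1. The same ratio was 2.04 and 1.93 in the libraries labelled H929 DMSO and 4.79 and 4.98 in those labelled H929 THZ1. These ratios compare the same pair of genes between libraries and are not scaled by length.

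Among the assembly platform genes, POLR2C (chr16:57496572-57505921, GRCh37) had 105.7 and 107.5 CPM in JJN3 with DMSO and 85.5 and 86.4 CPM with THZ1. The groups did not overlap and the adjusted p-value was 0.0064 (edgeR), but the log2 fold change of -0.29 (SE 0.076) was smaller than the limit. POLR2C was called lower in the libraries labelled H929, with 155.9 and 162.6 CPM against 79.3 and 70.3 CPM (log2 fold change -1.08, SE 0.063, adjusted p = 1.6e-10 from edgeR). POLR2L (chr11:837356-842529, GRCh37), which polymerases I and III also use, was not called in JJN3. It had 119.0 and 123.1 CPM with DMSO and 151.9 and 126.0 CPM with THZ1, without overlap, and a log2 fold change of 0.21 (SE 0.095, adjusted p = 0.0745 from edgeR). Between the H929 labels it went from 222.1 and 228.3 CPM to 194.7 and 173.2 CPM. The log2 fold change of -0.29 (SE 0.059, adjusted p = 0.00031 from edgeR) was inside the limit on size. Neither platform gene had a log2 fold change beyond 0.5 in JJN3.

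Of the stalk genes, POLR2G was called lower in JJN3 and POLR2D was not. POLR2G (chr11:62529037-62534182, GRCh37) had 2057 and 2265 counts in JJN3 with DMSO and 1037 and 1059 with THZ1, which is 106.4 and 116.0 CPM against 63.3 and 58.8 CPM. Both THZ1 libraries lay below both DMSO libraries (log2 fold change -0.85, SE 0.085, adjusted p = 1.2e-05 from edgeR). Between the H929 labels POLR2G had 110.3 and 112.9 CPM against 50.0 and 47.3 CPM, a log2 fold change of -1.19 (SE 0.061, adjusted p = 3.6e-11 from edgeR). POLR2D (chr2:128601127-128615729, GRCh37) had 53.6 and 52.6 CPM in JJN3 with DMSO and 35.7 and 40.6 CPM with THZ1. Its groups did not overlap, and its log2 fold change of -0.46 (SE 0.093, adjusted p = 0.0014 from edgeR) stayed just inside the limit on size, which it passed when library totals replaced TMM (-0.56), with no filter (-0.50) and without JJN3 THZ1 replicate 2 (-0.56). For POLR2D the libraries labelled H929 had 89.6 and 90.4 CPM against 73.5 and 76.8 CPM. The log2 fold change of -0.25 (SE 0.059, adjusted p = 0.00091 from edgeR) was inside the limit on size. The counts of POLR2G for each count of POLR2D went from 1.98 and 2.20 to 1.77 and 1.45 in JJN3, and from 1.23 and 1.25 to 0.681 and 0.616 between the H929 labels. The proteins of this pair bind each other in the stalk, and their mRNAs were in a lower ratio with THZ1 under both labels.

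**Figure D3:**
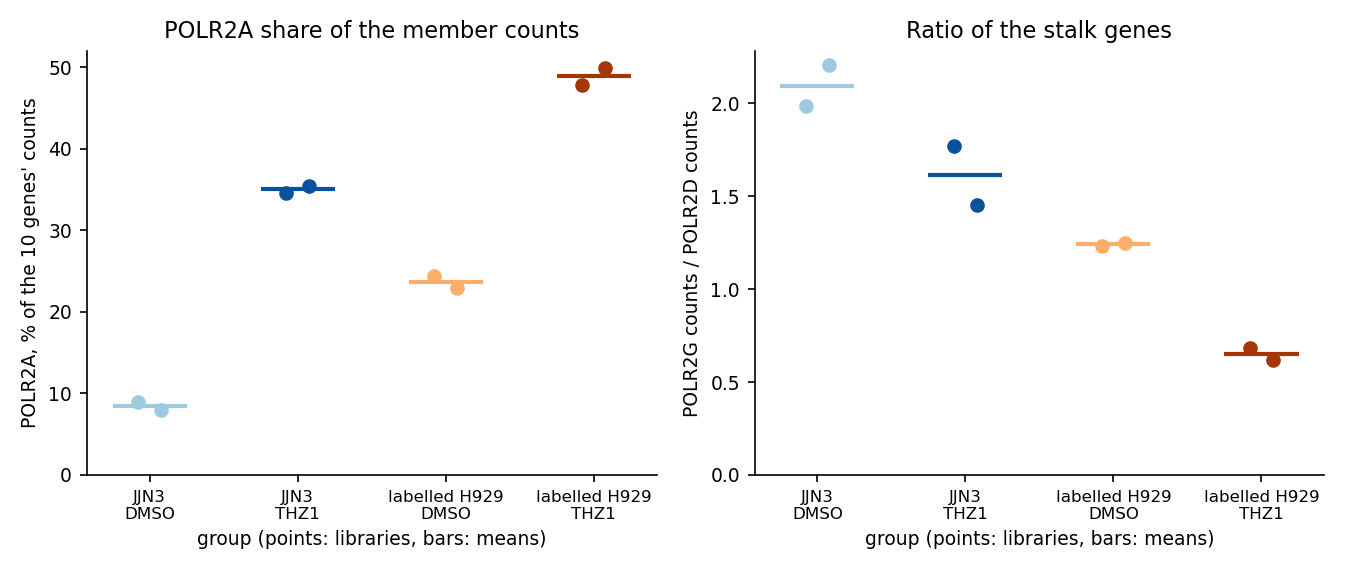
Left, counts of POLR2A as a percentage of the counts of the 10 subunit genes; right, counts of POLR2G divided by counts of POLR2D. Points are libraries and bars are means of 2, and both axes start at 0. The POLR2A share is 7.95% and 8.99% in JJN3 with DMSO and 47.9% and 49.9% in the libraries labelled H929 THZ1.

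POLR2I (chr19:36604611-36606115, GRCh37), whose product RPB9 helps the polymerase select the correct nucleotide, had 42.4 and 47.5 CPM in JJN3 with DMSO and 29.5 and 30.2 CPM with THZ1. The groups did not overlap and the gene was called lower, just past the limit (log2 fold change -0.57, SE 0.098, adjusted p = 0.00045 from edgeR). Under the H929 label it had 38.5 and 41.0 CPM against 34.4 and 31.1 CPM. Its log2 fold change of -0.27 (SE 0.081, adjusted p = 0.0054 from edgeR) did not pass the limit on size. With DESeq2 the adjusted p-value was 0.0783. It had the fewest counts of the 10 genes in every JJN3 library.

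The subunits shared with polymerases I and III held the largest fall and also genes that were not called. POLR2H (chr3:184079498-184086384, GRCh37) had 1676 and 1930 counts in JJN3 with DMSO and 648 and 668 with THZ1, which is 86.7 and 98.8 CPM against 39.6 and 37.1 CPM. Both THZ1 libraries lay under both DMSO libraries by more than their spread, with a log2 fold change of -1.26 (SE 0.094, 2.39-fold lower, adjusted p = 2e-06 from edgeR). In the libraries labelled H929 it had 1666 and 1636 counts against 606 and 538, a log2 fold change of -1.58 (SE 0.072, 2.98-fold lower, adjusted p = 7.9e-12 from edgeR). With DMSO the 2 labels had nearly equal levels of POLR2H, 92.7 ± 8.58 CPM in JJN3 and 90.1 ± 0.714 CPM in the libraries labelled H929 (SD, n = 2).

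POLR2E and POLR2F, also among the shared subunit genes followed here, were called lower between the H929 labels and not in JJN3. POLR2E (chr19:1086573-1095379, GRCh37) had 161.5 and 155.5 CPM in JJN3 with DMSO and 146.9 and 135.3 CPM with THZ1 (log2 fold change -0.15, SE 0.080, adjusted p = 0.123 from edgeR). These groups did not overlap, though the gene was not called. The libraries labelled H929 had 261.9 and 270.3 CPM with DMSO and 179.1 and 159.0 CPM with THZ1 (log2 fold change -0.65, SE 0.059, adjusted p = 4.5e-08 from edgeR). POLR2F (chr22:38348614-38437922, GRCh37) had 85.9 and 89.4 CPM in JJN3 with DMSO and 91.1 and 78.6 CPM with THZ1, so its groups overlapped (log2 fold change -0.03, SE 0.090, adjusted p = 0.776 from edgeR). For the H929 label they did not, with 90.8 and 95.7 CPM against 48.3 and 46.1 CPM (log2 fold change -0.98, SE 0.064, adjusted p = 7.8e-10 from edgeR). Of the 4 shared subunit genes among those followed here, 1 was called lower in JJN3 and 3 between the H929 labels. Their median log2 fold change was -0.09 and -0.81, where 21.3% and 32.6% of all genes were called lower.

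The make-up of the group differed with THZ1, where POLR2A had more counts and the other 9 genes together had fewer. POLR2A held 8.99% and 7.95% of the counts on the 10 genes in JJN3 with DMSO and 34.6% and 35.5% with THZ1. It held 24.4% and 22.9% in the libraries labelled H929 DMSO and 47.9% and 49.9% in those labelled H929 THZ1. The log2 ratio of POLR2A counts to the summed counts of the other 9 genes, which needs no scaling between libraries, was -3.34 and -3.53 in JJN3 with DMSO and -0.92 and -0.86 with THZ1, a difference of group means of 2.55. Between the H929 labels the difference was 1.63, from -1.63 and -1.75 to -0.12 and -0.004. With 2 libraries against 2 no exact test over libraries can reach 0.05, and these ratios are given without a test. The counts on the other 9 genes together went from 18425 and 19387 to 13788 and 14497 in JJN3, and from 23381 and 23308 to 16280 and 14983 between the H929 labels.

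Levels can be compared between genes only per length, and were therefore divided by the length of the canonical mRNA in kilobases, which turns CPM into RPKM. In JJN3 with DMSO the levels ran from 10.5 RPKM for POLR2D to 140.5 RPKM for POLR2G, in the order POLR2G, POLR2L, POLR2I, POLR2C, POLR2E, POLR2B, POLR2H, POLR2F, POLR2A and POLR2D. The values of the libraries overlapped between POLR2G and POLR2L and between POLR2B and POLR2H, so the order within these pairs is not resolved. POLR2A thus had rank 9 of 10, at 14.3 ± 0.933 RPKM (SD, n = 2). With THZ1 it had rank 3 in JJN3, at 70.5 ± 0.417 RPKM, below POLR2L (158.6 ± 20.9) and POLR2G (77.2 ± 4.04), and POLR2E and POLR2C overlapped. POLR2H went from rank 7, at 51.3 RPKM, to rank 9, at 21.2 RPKM. Under the label H929 DMSO the order was POLR2L, POLR2G, POLR2E, POLR2C, POLR2I, POLR2A, POLR2B, POLR2H, POLR2F and POLR2D, with POLR2C not separated from POLR2E or from POLR2I. Under the label H929 THZ1 it was POLR2L, POLR2A, POLR2I, POLR2G, POLR2E, POLR2B, POLR2C, POLR2F, POLR2H and POLR2D, with POLR2G and POLR2E overlapping, as did POLR2B and POLR2C. POLR2A was there at 124.8 ± 0.366 RPKM. Dividing by the union of all annotated exons in place of the canonical mRNA changed the order, and with it POLR2L led in all 4 groups. POLR2A then had rank 9 in JJN3 with DMSO, rank 2 with THZ1, rank 4 under the label H929 DMSO and rank 2 under the label H929 THZ1. POLR2D then had rank 9 under the label H929 DMSO and rank 8 under H929 THZ1, and POLR2F was the lowest in both.

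**Figure D4:**
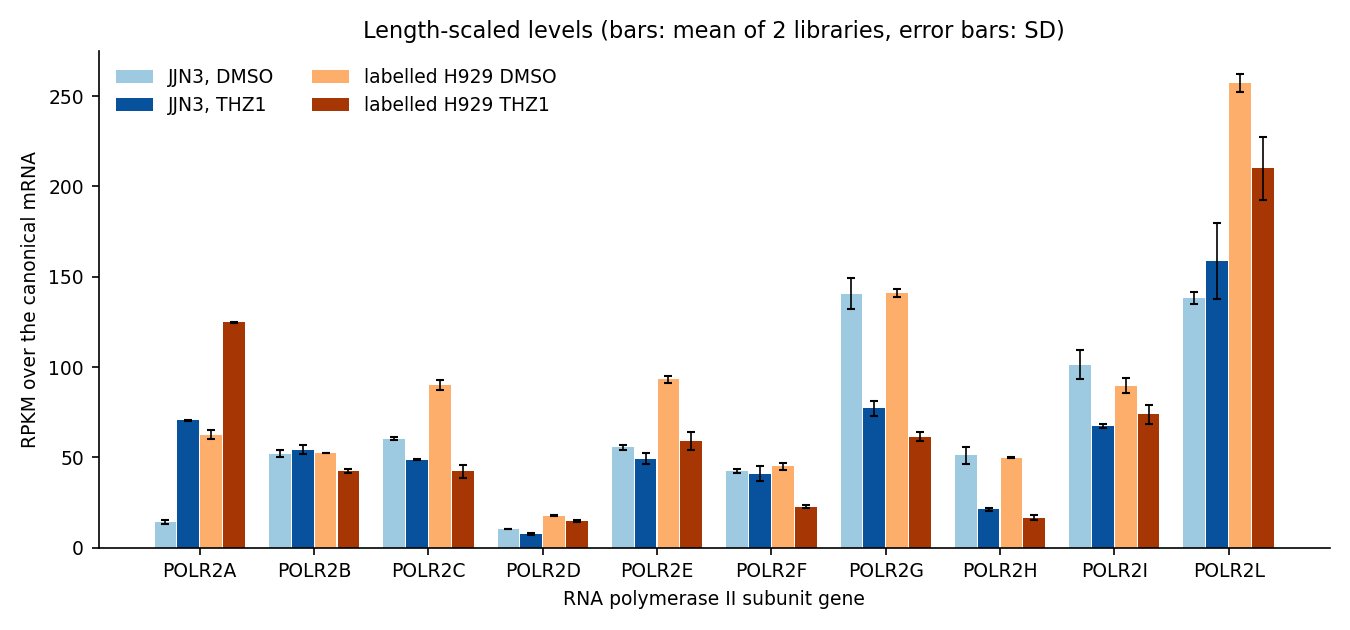
RPKM over the canonical mRNA (vertical, from 0) for the 10 subunit genes in the 4 groups. Bars are means of 2 libraries and error bars are SD. POLR2D is the lowest in every group, at 7.57 to 17.9 RPKM, and POLR2L reaches 257.1 RPKM in the libraries labelled H929 DMSO.

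The labels also differed before treatment. Of the 16122 genes tested between the DMSO libraries, 30.8% were called higher and 30.7% lower in those labelled H929 than in JJN3. POLR2A, POLR2C, POLR2D, POLR2E and POLR2L were called higher and 0 of the 10 lower by edgeR. The lower count was also 0 with DESeq2 (7.25% of the 63677 genes counted) and on the adjusted p-value alone (37.7% of genes tested). It was 0 as well at an unadjusted p under 0.05, where the share of all genes is not given. The log2 difference was 2.13 for POLR2A (SE 0.075, adjusted p = 4.8e-13 from edgeR), 0.90 for POLR2L, 0.76 for POLR2D, 0.75 for POLR2E and 0.58 for POLR2C. POLR2G differed by 0.0058 (SE 0.072) and POLR2B by 0.01 (SE 0.067), so these genes had nearly the same levels under both labels.

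The response to THZ1 was compared between the labels by an interaction test in one edgeR fit over all 8 libraries, in which 53.7% of 16122 genes were called in either direction. Of the 10 subunit genes, 3 were called. The log2 fold change between the H929 labels minus that in JJN3 was -1.31 for POLR2A, -0.93 for POLR2F and -0.78 for POLR2C, with adjusted p-values of 1.4e-08, 2.5e-06 and 6.4e-06 from edgeR. For POLR2G and POLR2H, called lower under both labels, the interaction was -0.33 (SE 0.106) and -0.31 (SE 0.122), inside the limit on size. For POLR2E and POLR2L it was -0.49 each, just inside that limit. Without H929 THZ1 replicate 1 these values were -0.55 and -0.55, and without JJN3 THZ1 replicate 2 they were -0.53 and -0.60. The interaction rests on the libraries labelled H929, so a difference in response and the other differences between these libraries cannot be told apart.

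The genes whose pattern over the 8 libraries was most like that of POLR2A, by Pearson's r of log2 CPM among 8957 other genes whose average log2 CPM was 3 or more, were ARSB (r = 0.993), PNPLA2 (0.99), GPRIN3 (0.989), KCTD10 (0.988) and DYNLT3 (0.988). The 8 libraries fall into 4 groups, share the depth and the difference between labels described above, and the r is a description. GPRIN3 had 1764 and 1538 counts in JJN3 with DMSO, 3824 and 3743 with THZ1, 3510 and 3192 in the libraries labelled H929 DMSO and 6046 and 6465 in those labelled H929 THZ1. The log2 fold changes of these 5 genes were 0.62 to 1.39 in JJN3 and 0.26 to 0.86 between the H929 labels, smaller than those of POLR2A. Among the other subunit genes the r with POLR2A ran from 0.626 for POLR2L to -0.777 for POLR2I.

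Genes of the same machinery outside the 10 moved in both directions in JJN3, and the counts below stand beside 20.6% of all genes called higher and 21.3% lower there, and 33.1% and 32.6% between the H929 labels. Of 5 other POLR2 genes examined, 3 could be tested and 1 was called lower, POLR2M (log2 fold change -0.56, SE 0.11). POLR2M encodes a factor bound to the polymerase rather than a core subunit. Between the H929 labels POLR2M was called higher (0.67, SE 0.11). The core subunit gene POLR2J had a log2 fold change of -0.32 and was not called. Of 14 genes for assembly and nuclear import of polymerase II, 4 were called lower and 1 higher, with a median log2 fold change of -0.38. RPAP1, an assembly factor, had a log2 fold change of -1.46, RUVBL1, an ATPase of the R2TP chaperone complex, -1.25, and UXT, a prefoldin-like protein, -0.66, while RPRD1B, which binds the CTD, was at 0.66. The same list had 7 genes called lower between the H929 labels, RPAP1, RUVBL1 and UXT among the 4 called lower under both. With library totals 6 of the list were called lower and 1 higher in JJN3 (26% and 16.8% of all genes).

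Of 12 genes for CTD phosphatases and other CTD modifiers or binding proteins, 4 were called higher and 2 lower in JJN3. SETD2, a histone methyltransferase that binds the phosphorylated CTD, rose by 1.36 on the log2 scale (SE 0.085), and SCAF4 and SCAF8, CTD-binding proteins that act in termination, rose by 0.94 and 0.78. SSU72, a phosphatase of the CTD, had a log2 fold change of -1.0 and PCIF1, a cap methyltransferase that binds the CTD, -0.59. Between the H929 labels SETD2 and SCAF4 were called lower and PCIF1 higher, the opposite of JJN3, while SSU72 was lower under both labels. Of 14 genes for ubiquitination and turnover of RPB1, 2 were called higher in JJN3, CUL5 (0.58) and the elongin B gene TCEB2 (0.58), and 1 lower, ERCC8 (-1.13), which encodes the CSA protein of transcription-coupled repair. The 2 higher calls were lost when library totals replaced TMM.

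Of 19 genes for general transcription factors other than TFIIH, 3 were called higher and 4 lower in JJN3, with a median of 0.02. GTF2A1 (log2 fold change 1.28), a TFIIA gene, TAF1 (0.61) and TAF13 (0.56) were higher, and TAF12 (-1.29), TAF10 (-0.71) and GTF2F2 (-0.68), a TFIIF gene, were among the lower. GTF2A1 and TAF13 were called higher and TAF12 lower under both labels. TAF1 was called lower between the H929 labels (-1.63), the opposite of JJN3, and TAF10 and GTF2F2 were not called there. With library totals 2 of the list were called higher and 4 lower in JJN3 (16.8% and 26% of all genes). Of 18 genes for pausing and elongation factors, 3 were called in each direction in JJN3. ELL (0.69), SUPT5H (0.57), the large subunit of DSIF, and ELL2 (0.51) were higher, and NELFE (-1.22) and NELFB (-0.71), subunits of the pausing factor NELF, and SUPT4H1 (-0.55), the small subunit of DSIF, were lower. With library totals 1 was called higher and 4 lower (16.8% and 26% of all genes).

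Polymerases I and III have their own large subunits, which correspond to RPB1 and RPB2 and were looked up for that reason, outside the rule for naming genes. In JJN3 the counterparts of POLR2A had log2 fold changes of -0.41 (POLR1A, SE 0.082) and -0.45 (POLR3A, SE 0.090), neither called, and between the H929 labels of -1.07 and -0.55, both called lower. The counterparts of POLR2B were at -0.46 (POLR1B) and -0.77 (POLR3B, called lower) in JJN3. None of these 4 genes was called higher under either label. Of 8 genes of polymerase I subunits outside polymerase II, some of which polymerase III also uses, 4 were called lower and 1 higher in JJN3 (median -0.68). CD3EAP (-1.37), POLR1E (-0.94) and ZNRD1 (-0.90) had the lowest log2 fold changes and TWISTNB (0.58) the highest. With library totals 0 of the 8 were called higher, so the TWISTNB call was lost, and 6 lower (26% of all genes). TWISTNB was called lower between the H929 labels, where 7 of the 8 were, against 32.6% of all genes. Of 10 genes of polymerase III subunits, 7 were called lower in JJN3 (median -0.69), against 21.3% of all genes, with POLR3C (-1.02), POLR3K (-0.82) and POLR3G (-0.81) the lowest. With library totals 9 of them were called lower, against 26% of all genes. Between the H929 labels 4 were called lower and 1, POLR3C, higher. No gene of these lists that was called in either comparison changed sign when library totals or DESeq2's size factors replaced TMM.

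**Figure D5:**
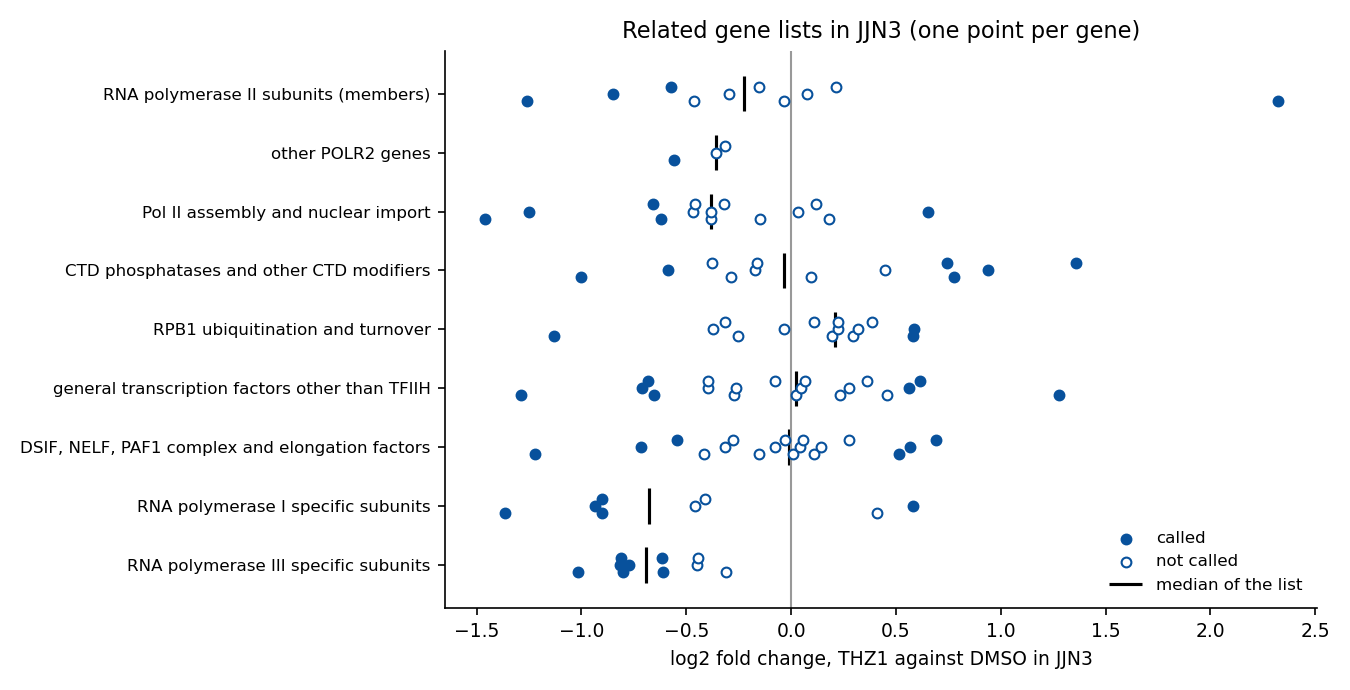
Log2 fold change of THZ1 against DMSO in JJN3 (horizontal) for the 10 subunit genes and the genes of 8 related lists, one point per gene, filled where called, with the median of each list as a black bar and the median of all genes as a grey line. POLR2A, at 2.32, lies to the right of every other gene shown, and the medians of the polymerase I and III lists lie at -0.68 and -0.69.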

How the data were processed

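Per the labels and the study's methods, the authors aligned single-end reads to hg19 with STAR 2.5.2a, kept reads mapping to a single place, and used featureCounts to make the deposited count table by Ensembl gene, which holds raw counts. They also deposited DESeq2 tables with a mean, fold change, standard error, statistic and p-values per gene, of which only the gene symbols were used. Counts were tested in edgeR 4.0.16 under R 4.3.3 (TMM, filterByExpr, quasi-likelihood test, Benjamini-Hochberg adjustment) within each line, between the DMSO groups and as an interaction over all 8 libraries. The tests were tried on simulated data. Alternatives were DESeq2 1.42.0, its size factors, library totals, other filters and limits, the replicate block and leaving out each library. The members, lists and tests were chosen with earlier results of these data known. Named were all members, up to 3 called genes per list and direction by size in JJN3, and the 5 genes most like POLR2A. Gene positions and lengths came from GENCODE on GRCh37. H3K27ac data were not analysed here.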

Additional observations from a re-analysis of the deposited data

Results flagged for a closer look

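For 3 subunit genes the response to THZ1 differed between the line labels by an interaction test (edgeR's quasi-likelihood test, Benjamini-Hochberg adjustment), by which 53.7% of all genes tested were called. The log2 fold change between the libraries labelled H929 minus that in JJN3 was -1.31 for POLR2A (SE 0.102, adjusted p = 1.4e-08), -0.93 for POLR2F (SE 0.114, adjusted p = 2.5e-06) and -0.78 for POLR2C (SE 0.103, adjusted p = 6.4e-06). POLR2A was called higher with THZ1 under both labels, by 2.32 on the log2 scale in JJN3 and by 1.00 between the H929 labels. Its DMSO level was higher in the libraries labelled H929 than in JJN3. Any bearing of that level on the response was not tested. POLR2F and POLR2C were called lower between the H929 labels alone. The treated and untreated libraries labelled H929 also differ in light chain, FGFR3 and MAF, and the part of that difference cannot be told apart from the treatment. Groups of 2 libraries are too small for a test of single outlying libraries.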

How the results depend on the processing

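Of 460 single-gene results under alternatives of tool, scaling, filter, fit, replicate block or left-out library, 453 kept their side of the thresholds, 7 newly passed them, and 0 calls were lost or changed direction. The sign of values that were not called changed in 11 cases, for POLR2B and POLR2F in JJN3 and for POLR2B, POLR2G and POLR2H between the DMSO groups, all within 0.08 of 0. The 7 are POLR2D in JJN3 (with library totals, no filter, or without JJN3 THZ1 replicate 2) and the interaction of POLR2E and POLR2L (each without H929 THZ1 replicate 1 or JJN3 THZ1 replicate 2). The interaction values of POLR2E and POLR2L in these fits are given above. On the adjusted p-value alone, 5 of the 10 were lower in JJN3 (30.1% of all genes), 9 lower between the H929 labels (40.9%) and 9 had a different response (62.0%). With a log2 limit of 1 these counts were 1, 3 and 1 (7.19%, 21.2% and 37.8%), and 1 was higher in the libraries labelled H929 DMSO (21.1%). The change in the log2 ratio of POLR2A in JJN3 was 2.69 as the median over the other 9 genes, against 2.55. Library totals shifted the median of all genes by -0.10 in JJN3 and by 0.14 in the interaction. Same-numbered libraries deviated together with r = 0.014 in JJN3 and -0.054 under the H929 label, so their numbers were not taken as pairs. With the replicate block, 1 subunit gene was higher and 3 lower in JJN3 (20.7% and 21.5% of all genes), as without it. Between the H929 labels these counts were 1 and 5 (32.7% and 32.2%), also as without it. Depth was no limit for these genes. With 2 libraries per group, the spread was estimated across genes.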
